A study of Homo sapiens with 21 samples.

Results

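In HMLE, a cell line made by immortalizing human mammary epithelium, 138 genes formed a spike of transcript level at day 15 of TGFβ treatment. These were selected on measured values: the mean normalised read count at day 15 (d15) had to be at least 100, at least 3 times the mean at day 10 (d10), at least 3 times the mean at day 20 (d20) and at least 2 times the mean of untreated cells (d0). Of 23201 genes in the file, 142 met the 4 conditions, and 4 of these were left out because their symbols start with KRT, SPRR, KLK, S100, COL or MMP, which leaves the 138 (0.595% of the file). RNA was sequenced from untreated HMLE cells and from cells treated with TGFβ for 1, 4, 7, 10, 15 and 20 days, all seeded at 1 density, with 3 biological replicate libraries per timepoint and 21 in all. Every treated group was thus the same line under the same cytokine, TGFβ, which drives epithelial cells toward epithelial-to-mesenchymal transition (EMT). All treated days share the d0 libraries as their only untreated reference among these samples, so treatment and time in culture cannot be told apart.

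As background, many of the 138 genes are known for roles when cells leave the cycle or meet stress. The transcription factor p53 switches on the cyclin-dependent kinase inhibitor *CDKN1A* and a set of genes for arrest, repair and cell death, while FOXO transcription factors do the same for *TXNIP* and other genes of low growth factor signalling. A separate class, the immediate early genes such as *FOS* and *EGR1*, is transcribed within minutes of a signal and encodes unstable transcripts, and glucocorticoid hormone induces *TSC22D3*, *ZBTB16*, *GLUL* and *DUSP1* in many epithelia.

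The values are read counts divided by 1 size factor per library, and the reads recovered from them totalled between 18847917 and 22667754 per library. Markers of the basal mammary epithelium were all detected, and 7 of 12 immune cell markers, among them *PTPRC* and *CD3E*, were at 3 reads or fewer in every library, as were 2 of 10 endothelial markers (*CDH5* and *CLDN5*), 2 of 10 fibroblast markers (*DCN* and *LUM*), 3 of 10 luminal markers and 3 of 7 melanocyte markers. Summed normalised read counts of several marker lists were higher at d15 than at d10: 727029 to 752734 against 470214 to 488816 for basal markers, 16713 to 17004 against 13065 to 13351 for luminal markers and 91.2 to 105 against 42.05 to 69.96 for melanocyte markers. The basal sum includes *KRT17*, which met the 4 conditions and was left out for its name. Its mean was 13305 at d10 and 186677 at d15, a large part of the difference in that sum. Fibroblast markers summed to 9257 to 9659 at d10, 14010.4 to 14980.1 at d15 and 35942 to 38122 at d20, and 4 of the 7 tested were called higher at d7 than d1 and 4 at d15 than d10. Their part in the results was not tested. The third of the d7 libraries in file order stood apart from the other two. On the log2 scale it differed from them by a root mean square of 0.457 to 0.472 over the 13343 genes tested, compared with 0.214 to 0.243 for every other pair of libraries of a timepoint. The d7 counts over the whole set and the log2 fold changes of named genes at d7 are therefore given with and without it. In bulk RNA, a change in the share of cells that express a gene and a change in RNA per cell cannot be told apart.

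The spike stood between 2 low points. The median over the 138 genes of log2(value + 1) was between 8.53 and 8.55 in the d15 libraries, between 5.50 and 5.62 at d10 and between 6.35 and 6.46 at d20. Before that it had been 6.40 to 6.50 at d0, 6.18 to 6.29 at d1, 7.53 to 7.64 at d4, and 8.48, 8.42 and 7.24 in the 3 d7 libraries. As a description of what the selection used, the d15 mean was a median of 7.76 times the d10 mean, 4.13 times the d20 mean and 3.89 times the d0 mean. The replicates at d15 lay close together, with a median SD of 4.89% of the mean and a largest SD of 15.6%. For 96 of the 138 genes the lowest of the 7 means was at d10, below untreated cells, and the median ratio of d10 to d0 was 0.534. The rule asked for at least 3 times d10 and d20 but 2 times d0, so it favoured low d10 and d20 values. Counts and ratios at these days are therefore a description of the selection. At d20 the genes were back near the untreated level, with a median ratio of 0.821, although 20 genes stayed at 2 times d0 or more and 15 were at 0.5 times d0 or less.

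**Figure D1:**
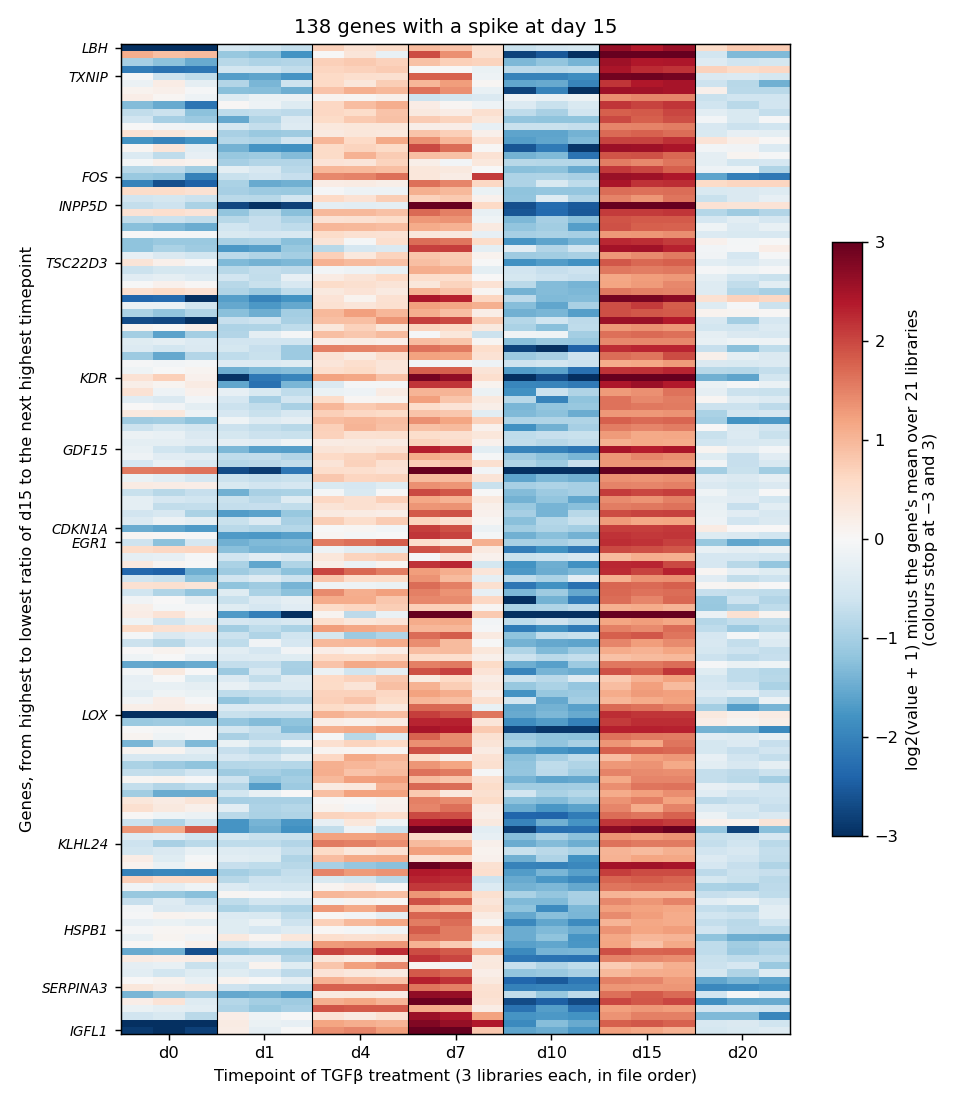
Each row is 1 of the 138 genes, each column 1 of the 21 libraries, and the colour is log2(value + 1) minus the mean of the gene over all libraries. The d15 columns are high throughout, d10 is low, d4 and the first and second d7 libraries are raised, and the third d7 library is paler than its neighbours.

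Day 15 was not the highest timepoint of every gene. Of the 138 genes, 116 had their highest mean at d15, 16 at d7 and 6 at d4. Without the third d7 library these counts were 97, 35 and 6. The median ratio of the d15 mean was 2.08 to the d4 mean and 1.54 to the d7 mean, and the d10 lows came between those timepoints and the spike.

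The 15 genes that stood furthest above their next highest timepoint were *LBH*, *BEST2*, *DUSP1*, *LAPTM5*, *TXNIP*, *RHBDL1*, *ZNF467*, *SNHG1*, *SOCS3*, *MIRLET7BHG*, LOC100289187, *NCRNA00219*, *UNC5B*, *SATB1* and *CDKN1C*, with ratios from 2.11 to 3.38. *LBH*, a transcription cofactor of limb, heart and mammary development, had normalised read counts of 8.90, 11.03 and 8.90 in the d0 libraries, 75.3, 69.7 and 64.5 at d1, 174, 147 and 156 at d4, then 207, 194 and 151 at d7, 66.7, 70.9 and 73.3 at d10, followed by 655, 556 and 651 at d15 and 158, 185 and 183 at d20. No d15 library overlapped any other timepoint, and all treated libraries lay above the untreated ones. *TXNIP*, which binds thioredoxin and restrains glucose uptake, stood at 1956, 1306 and 1186 at d0, 637, 672 and 592 at d1, 3054, 2837 and 2803 at d4, then 6970.3, 6842 and 1803 at d7, 502, 502 and 552 at d10, followed by 15025, 15294 and 14824 at d15 and 1487, 1503 and 1390.5 at d20. Its d1 and d10 libraries lay below every untreated library, and the third d7 library lay below those of d4. *DUSP1*, a phosphatase that switches off MAP kinases, was 2644 ± 144 (SD, n = 3) at d15, compared with 800.3 ± 26.4 at d4, 808 ± 63.7 at d7, 194 ± 16.03 at d10 and 205 ± 36.9 at d0.

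Promoter sequence was available for part of the set and is shown for 5 genes that carry a searched motif. RefSeq promoters of build GRCh38.p14 matched 92 of the 138 genes by symbol, and 46 had no entry under the symbol used in the file. The 250 bases before each start were searched on both strands for 7 motifs, and a gene counted when any of its promoters held a match. A FOXO motif (GTAAACA) was present in 5 of the 92 genes (*GDF15*, *RNF39*, *TCP11L2*, *TSC22D3* and *TXNIP*), or 5.43%, compared with 3.66% of all 27305 genes in the table. The cyclic AMP response element (TGACGTCA) was in 4 (4.35%, against 2.03% of all) and the CArG box, the site of serum response factor, in 1 (1.09%, against 1.44%). The AP-1 motif (TGANTCA) was in 4 (4.35%, against 8.06%), the E-box (CACGTG) in 5 (5.43%, against 7.73%), the core of the glucocorticoid receptor site (ACANNNTGT) in 4 (4.35%, against 5.64%) and the TATA box (TATAAA) in 10 (10.9%, against 13%). These counts describe letters in a window, and no motif was in more than 10 of the 92 genes. Capitals mark the motif matches, none of which overlap in these 5 promoters, and positions count back from the base before the start.
TXNIP, chr1:145996580-145996829 of GRCh38.p14, minus strand, with the FOXO motif from -124 to -118 and the receptor core from -173 to -165: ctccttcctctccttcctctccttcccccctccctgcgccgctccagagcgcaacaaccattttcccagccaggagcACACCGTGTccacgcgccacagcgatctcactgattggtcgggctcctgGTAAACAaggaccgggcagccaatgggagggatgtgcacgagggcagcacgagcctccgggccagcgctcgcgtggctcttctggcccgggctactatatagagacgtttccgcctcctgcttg
DUSP1, chr5:172771196-172771445, minus strand, with the cyclic AMP response element from -125 to -118, the E-box from -108 to -103 and the TATA box from -30 to -25: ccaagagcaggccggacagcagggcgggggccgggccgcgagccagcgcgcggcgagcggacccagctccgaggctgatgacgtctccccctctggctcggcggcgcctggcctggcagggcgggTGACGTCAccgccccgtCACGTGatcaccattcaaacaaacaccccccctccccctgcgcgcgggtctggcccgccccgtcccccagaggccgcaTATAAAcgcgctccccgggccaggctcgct
EGR1, chr5:138465229-138465478, plus strand, with CArG boxes from -105 to -96 and from -83 to -74: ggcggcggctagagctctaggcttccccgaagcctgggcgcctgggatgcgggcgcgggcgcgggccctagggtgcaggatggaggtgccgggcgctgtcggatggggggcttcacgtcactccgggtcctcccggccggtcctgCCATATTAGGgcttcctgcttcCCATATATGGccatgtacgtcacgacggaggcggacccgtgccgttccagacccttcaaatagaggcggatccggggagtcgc
FOS, chr14:75278578-75278827, plus strand, with the TATA box from -33 to -28: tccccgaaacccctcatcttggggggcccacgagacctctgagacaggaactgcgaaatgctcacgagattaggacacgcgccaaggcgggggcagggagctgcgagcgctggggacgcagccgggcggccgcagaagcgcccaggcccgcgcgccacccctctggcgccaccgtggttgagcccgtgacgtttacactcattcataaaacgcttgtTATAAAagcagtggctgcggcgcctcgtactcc
GDF15, chr19:18385908-18386157, plus strand, with the FOXO motif on the opposite strand from -96 to -90 and the TATA box from -29 to -24: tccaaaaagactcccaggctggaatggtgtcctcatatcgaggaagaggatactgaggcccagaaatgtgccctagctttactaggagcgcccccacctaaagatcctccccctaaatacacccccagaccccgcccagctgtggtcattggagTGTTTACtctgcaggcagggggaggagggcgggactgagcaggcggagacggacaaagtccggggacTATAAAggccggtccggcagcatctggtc

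The d1, d4 and d7 libraries took no part in the selection, and the 138 genes were tested there in a fit over all 13343 genes whose mean over the 21 libraries was 10 or more, a filter that all 138 passed. The question was whether genes chosen for day 15 also moved in the first week of EMT, with d1 as the reference. At d1 the median ratio to d0 was 0.765, with 29 genes at 0.5 times d0 or less and 13 at 2 times or more. At d4 and d7 the median ratios to d0 were 1.89 and 2.60, and 62 and 97 genes were at 2 times d0 or more. At 0.5 times d0 or less were 4 and 0. Since d0 took part in the selection, these ratios are a description. A gene was called at a Benjamini-Hochberg adjusted p under 0.05 in limma's test with a change of at least 2-fold. From d1 to d4, 98 of the 138 genes (71.0%) rose, compared with 4.19% of all genes, and 0 fell, compared with 1.98% of all genes. No gene was lower even at an unadjusted p under 0.05, and edgeR and DESeq2 on the recovered reads also called 0 lower. The median log2 fold change was 1.36, with a range from -0.36 to 3.43, and that of all genes tested was 0.01.

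From d1 to d7, 118 of the 138 genes (85.5%) rose, compared with 5.49% of all genes, and 0 fell by the same limma test, compared with 2.22% of all genes. Only *SNHG1* was lower at an unadjusted p under 0.05, and edgeR and DESeq2 called 0 lower. The median log2 fold change was 1.72 and that of all genes tested 0.01, and it was 2.05 with 121 genes called when the third d7 library was left out. Between d4 and d7, 37 of the 138 genes (26.8%) rose, compared with 2.27% of all genes, and the median log2 fold change was 0.22. The 3 that fell were near the share of all genes, 1.51%. The counts at d7 against d4 varied with the library left out. Without the third d7 library 55 genes rose and 3 fell, and without the first d7 library 22 rose and 5 fell. The shares of all genes called in fits with a library left out are not given here. These counts, and the 121 at d7 against d1, are therefore a description only. Of the 138 genes, 86 were called higher than d1 on both days, 32 at d7 alone, 12 at d4 alone and 8 on neither day. The 8 were *DMPK*, *GAS5*, LOC100506548, *MIB2*, *NCRNA00219*, *NKPD1*, *PITPNM3* and *SNHG1*, and the 12 included *SOCS3*, *LAPTM5* and *TNXB*. This split used all d7 libraries and changed without the third. Among others, *NKPD1* and *MIB2* were then called at d7 against d1, with log2 fold changes of 1.34 and 1.03. *CPT1A* and *FOS* were then no longer called there, at 0.97 and 0.94.

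**Figure D2:**
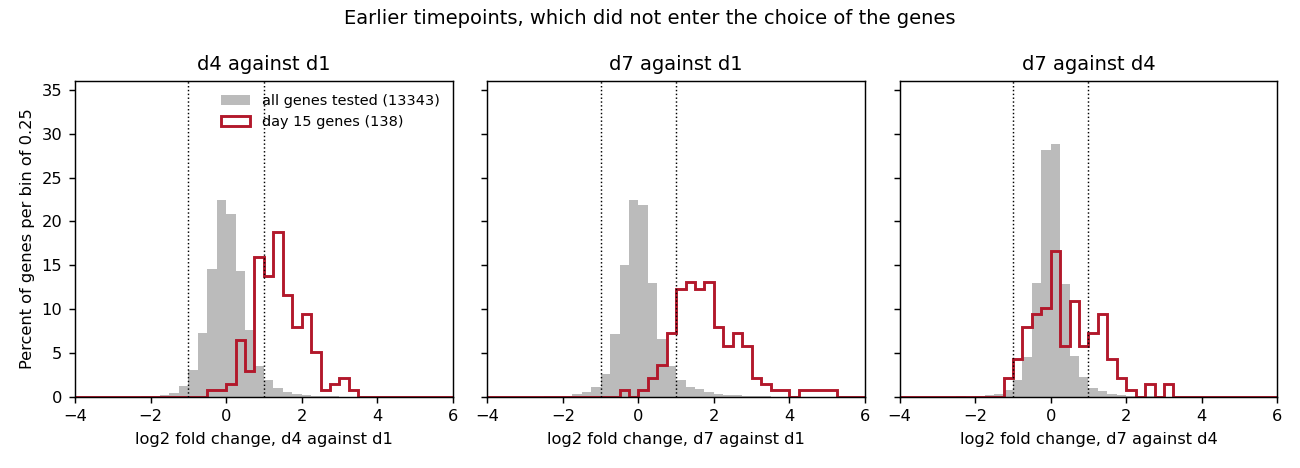
Histograms of log2 fold changes between d1, d4 and d7, as percent of genes per bin, for all 13343 genes tested (grey) and the 138 genes (red line), with dotted lines at 2-fold. The red line is shifted to the right at d4 and d7 against d1 (medians 1.36 and 1.72) and is wider than the grey at d7 against d4 (median 0.22).

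The steepest early rises were spread over unlike functions. From d1 to d4, *KDR*, *RASD2*, *PRODH*, *EGR1* and *FBXO32* led, with log2 fold changes from 2.88 to 3.43 (limma adjusted p between 3.97e-12 and 1.18e-05). *KDR*, the main receptor for vascular endothelial growth factor, had normalised read counts of 41.8, 50.9 and 33.6 at d0, 3.14, 6.15 and 6.95 at d1, 71.5, 69.1 and 56.8 at d4, then 229, 197 and 43.7 at d7, 1.99, 3.89 and 2.93 at d10, followed by 273, 263 and 253 at d15 and 10.6, 9.47 and 20.6 at d20. The d1 and d10 libraries held only a few reads, and the d15 libraries were the highest of the course. *KDR* marks endothelium, and the 9 other endothelial markers summed to between 38.9 and 49.98 at d15 and between 53.5 and 69.7 at d10.

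From d1 to d7 the order was *INPP5D*, *NCRNA00086*, *PRODH*, *KDR* and *EDN2*. *INPP5D* encodes SHIP1, a phosphatase that removes a phosphate from the lipid messenger of PI3 kinase and is best known in blood cells. It stood at 352, 376 and 298 at d0, 85.8, 72.8 and 82.4 at d1, 471, 459.6 and 473 at d4, then 5402, 5169 and 876 at d7, 91.6, 115 and 99.7 at d10, followed by 7135, 7096 and 7145 at d15 and 778, 752 and 767 at d20. Its d7 libraries all lay above d4 and below d15, and the log2 fold change from d1 to d7 was 5.16 (SE 0.39, limma adjusted p = 7.33e-10), or 6.03 without the third d7 library. *PRODH*, the mitochondrial proline dehydrogenase and a known p53 target, rose by a log2 fold change of 4.52 (SE 0.48, limma adjusted p = 7.22e-08), or 5.54 without that library. *EDN2*, an endothelin peptide, was at 3 reads or fewer in each d10 library and at 101 ± 11.8 (SD, n = 3) at d15, at least 34.3-fold higher with the floor set at 3 reads per library. The noncoding RNA *NCRNA00086* had 0 reads at d10 and 198 ± 10.4 at d15, at least 67.2-fold higher on the same floor.

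*EPPK1*, which encodes the cytolinker epiplakin, moved most between d4 and d7. It was 33.6, 29.2 and 27.4 at d4, then 560.4, 459.8 and 92.1 at d7 and 384, 387 and 372 at d15, a log2 fold change from d4 to d7 of 3.22 (SE 0.38, limma adjusted p = 7.02e-07) and of 4.04 without the third d7 library. The ceramidase gene *ACER2* also rose between those days, by 2.10, or 2.59 without that library. In the other direction *ATP2A1*, *FBXO32* and *EGR1* fell by 1.06, 1.06 and 1.04 on the log2 scale. Without the third d7 library the changes of *ATP2A1* and *EGR1* were -1.17 and -1.26, that of *FBXO32* was -0.77 and no longer reached 2-fold, and *FOS* joined the genes that fell, at -1.24. The changes of *ATP2A1* and *EGR1* missed 2-fold without the second d7 library (-0.96 and -0.87) or the third d4 library (-0.93 and -0.97), and that of *EGR1* without the first d7 library (-0.99).

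Of 9 genes grouped under cell cycle arrest and the p53 response, all rose from d1 to d7 and 6 from d1 to d4, set beside 85.5% and 71.0% of the 138. Of 22 p53 target genes tested, from a list written with results of these data known, 7 were among the 138: *CDKN1A*, *GDF15*, *ZMAT3*, *SPATA18*, *BBC3*, *TP53INP1* and *BTG2*. *CDKN1A*, which encodes the inhibitor p21, had normalised read counts of 1937, 1831 and 1668 at d0, 3103, 2917 and 3025 at d1, 5413, 5725 and 5163 at d4, then 22956, 20636 and 4839.8 at d7, 2642, 2903 and 2682 at d10, followed by 23139.9, 22797 and 23650.4 at d15 and 6418, 5529 and 5456 at d20. The first d7 library lay within the d15 range, the second below it and the third below d4. From d1 to d7 its log2 fold change was 2.13 (SE 0.32, limma adjusted p = 7.89e-06), and 2.85 without the third library.

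*GDF15*, a stress cytokine, showed the same split at d7, with 573, 506 and 88.4, set beside 145, 139 and 152 at d4, 26.9, 26.2 and 23.5 at d10 and 614, 569.8 and 605 at d15. All 7 genes were called higher at d7 than d1, with log2 fold changes from 1.39 for *ZMAT3*, an RNA-binding regulator of splicing, to 2.95 for *GDF15*, and 1.84 to 3.82 for the same genes without the third library. At d4, *GDF15*, *SPATA18* (mitochondrial quality control), *BBC3* (the death-promoting protein PUMA) and *TP53INP1* (autophagy and cell death) had been called, whereas *CDKN1A*, *ZMAT3* and the antiproliferative gene *BTG2* stood at log2 fold changes of 0.85, 0.63 and 0.83. *CDKN1C*, which encodes the related inhibitor p57, went from 9.48 ± 2.93 at d10 to 337 ± 14.4 at d15 and back to 50.6 ± 6.57 at d20 (mean ± SD, n = 3), and rose from d1 to d4 by 2.27. *TRIM22*, an antiviral ubiquitin ligase, rose by 3.37 from d1 to d7, or by 4.09 without the third library.

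**Figure D3:**
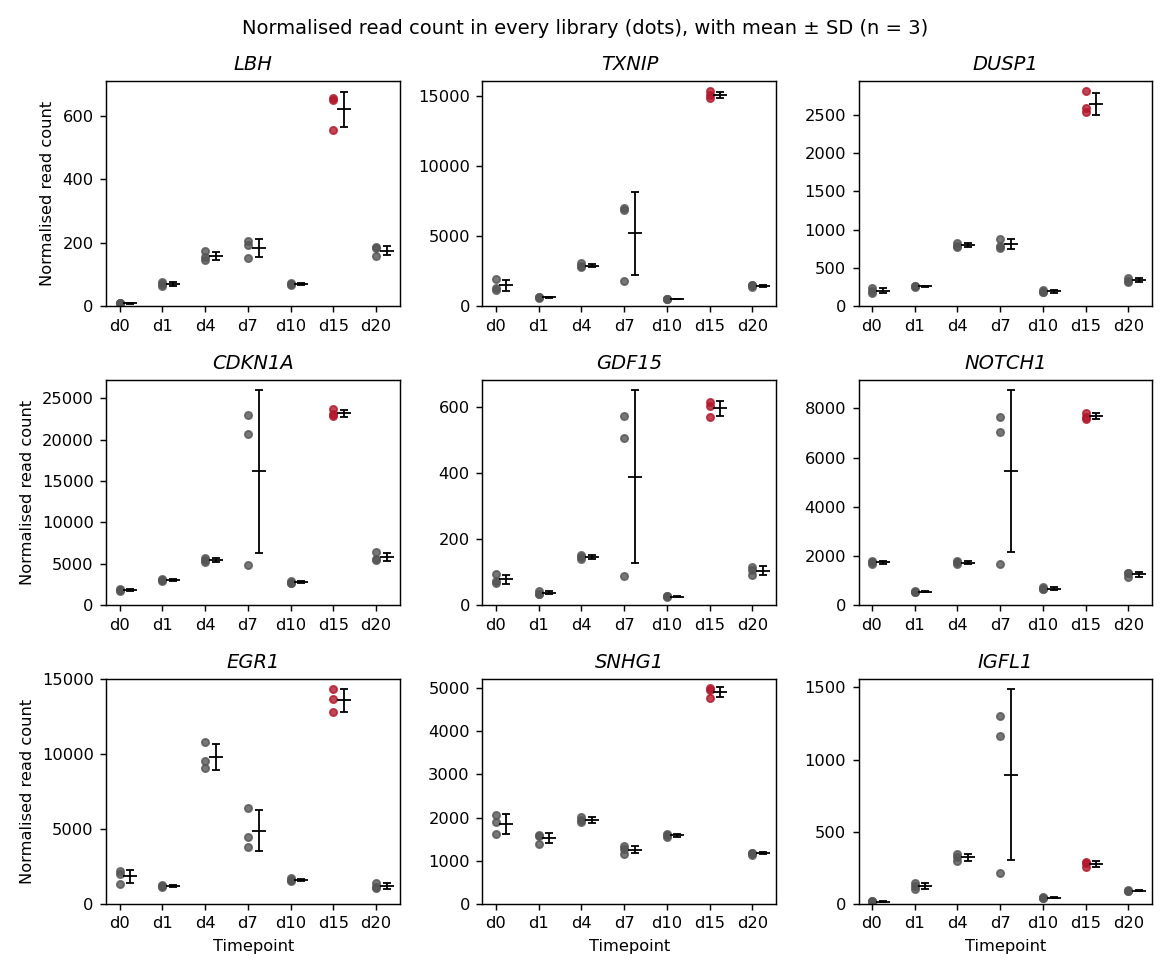
Normalised read counts of 9 genes in each of the 21 libraries (dots, d15 in red), with the mean and SD of the 3 libraries of a timepoint beside them. *LBH*, *DUSP1* and *SNHG1* are far higher at d15 than at any other day, with *LBH* and *DUSP1* also raised over d1 at d4 and d7. *CDKN1A*, *GDF15* and *NOTCH1* have the first d7 library within the d15 range, the second below it and the third below d4. *EGR1* has a first high at d4, and *IGFL1* is highest at d7.

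The other lists of pathway genes are described at d15 against d10 and at d20 against d15 without the 138, which were chosen on those ratios. Of the 15 p53 targets outside the 138, 7 were higher at d15 than d10, compared with 12% of all genes, and 1 was lower, compared with 10.2% of all genes, with a median log2 fold change of 0.98. The 7 were *MDM2*, *SESN1*, *PHLDA3*, *RRM2B*, *XPC*, *DDB2* and *FDXR*, at log2 fold changes from 1.51 to 2.00, and *AEN* was lower at -1.12. *TP53I3*, a textbook p53 target, was 1704 ± 94.3 at d10 and 1099 ± 23.3 at d15, lower by less than 2-fold. From d15 to d20, 6 of the 15 were lower, compared with 7.43% of all genes, with a median of -0.74, and 0 were higher by limma, compared with 7.55% of all genes, with 1 of the whole list higher at an unadjusted p under 0.05. Over all 22 genes, 4 rose from d1 to d4, all of them among the 138, compared with 4.19% of all genes. From d1 to d7, 14 rose, 7 of them among the 138, compared with 5.49% of all genes, and 14 rose without the third d7 library too. Wherever a count of 0 is given here for a list, edgeR and DESeq2 also called 0 over that list.

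FOXO-linked genes formed a second group, and 6 of the 24 genes tested on that list were among the 138. *FOXO1* itself, which was not on the list, stood at 479.6, 443 and 398 at d4, then 1069, 1049.9 and 275 at d7, 108, 120.5 and 103 at d10 and 1049, 991 and 919.9 at d15. Its first and second d7 libraries lay above every d15 library, and the third lay below d4. Among the 6, *TXNIP*, *CDKN1C*, *BCL6* (a transcriptional repressor), *YPEL3* (a growth suppressor) and *FBXO32* (the ubiquitin ligase atrogin-1) rose at both d4 and d7, and *ARRDC4*, an arrestin-domain relative of *TXNIP*, rose at d7 by 1.24, or by 1.64 without the third library. *FBXO32* was highest at d4, with 1416 ± 26.2 (SD, n = 3) against 936 ± 18.5 at d15. Of the 18 genes outside the 138, 8 were higher at d15 than d10 (12% of all genes), with a median log2 fold change of 0.91, and 3 were lower at d20 than d15 (7.43% of all genes). In the other direction limma called 0 on either occasion, with 1 and 0 genes of the whole list at an unadjusted p under 0.05. The pro-apoptotic gene *BMF* rose from d1 by 2.25 at d4 and 2.01 at d7 on the log2 scale, the latter 2.37 without the third library.

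Among the steroid-responsive genes was the one with the largest normalised read count of the 138, not corrected for transcript length. *GLUL*, glutamine synthetase, had 56510.3, 55476 and 56573 at d15, 7742, 7938 and 7953 at d10 and 26249, 25883 and 24251 at d0. *TSC22D3*, which encodes the anti-inflammatory protein GILZ, was 7145 ± 1154 at d0, 2451 ± 69.9 at d1, 12283 ± 703 at d4, 1866 ± 96.6 at d10 and 21905 ± 986 at d15 (mean ± SD, n = 3). The d1 and d10 lows of both genes lay below untreated cells. *ZBTB16*, the repressor PLZF, rose by 2.03 at d4 and 2.09 at d7 against d1, the latter 2.699 without the third library, and had 44.1 ± 3.85 at d10 and 1087 ± 27.04 at d15. Of the 20 glucocorticoid response genes tested, 16 lay outside the 138, of which 8 were higher and 2 lower at d15 than d10 (12% and 10.2% of all genes) and 2 were higher and 6 lower at d20 than d15 (7.55% and 7.43% of all genes). The list was not uniform: the metallothionein *MT2A* and the lipase inhibitor *ANGPTL4* were the 2 lower genes, with log2 fold changes of -1.86 and -4.89, and the receptor chaperone *FKBP5*, a widely used marker of the hormone, changed by 0.53.

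Immediate early genes had a first high at d4. *EGR1*, a zinc finger factor, had 1999, 1312 and 2181 at d0, 1125, 1218 and 1247 at d1, 9071, 9582 and 10798 at d4, then 4445, 3769.9 and 6428 at d7, 1571, 1543 and 1702 at d10, followed by 14345, 13704 and 12796 at d15 and 1406, 1044 and 1135 at d20. From d1 to d4 it rose by a log2 fold change of 3.03 (SE 0.16, limma adjusted p = 3.97e-12), and neither its d4 nor its d15 libraries overlapped another timepoint. *FOS*, a subunit of the AP-1 factor, stood at 1297, 1331 and 1506 at d4, then 606, 559 and 2055 at d7, 249.8, 256 and 242 at d10 and 2865, 2760.4 and 2568 at d15. In both genes the third d7 library was the highest of its timepoint, unlike most of the set. *SOCS3*, an inhibitor of cytokine receptors, rose from d1 to d4 by 1.04 and was 565 ± 25.6 (SD, n = 3) at d15.

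For 128 of the 138 genes (92.8%) the third d7 library was the lowest of its timepoint, as it was for 41.7% of all genes tested, and the median ratio to the mean of the other two was 0.489. The 6 genes for which it was the highest were *ATP2A1*, *CPT1A*, *EGR1*, *FOS*, *MIRLET7BHG* and *SNHG1*. The third d7 library lay above every d1 library for 134 of the 138 genes, a count not set beside all genes. All 3 d7 libraries lay above every d10 library for 136, but low d10 values were part of the selection, so that count is a description. Genes of the cell cycle differed in the third d7 library as well. The mean log2 value of 36 DNA replication genes was 9.64, 9.72 and 9.99 in the 3 d7 libraries, and that of 36 mitosis genes was 11.24, 11.27 and 11.73, with the third library nearest to untreated cells in both. Their part in the d7 values of the 138 genes was not tested.

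**Figure D4:**
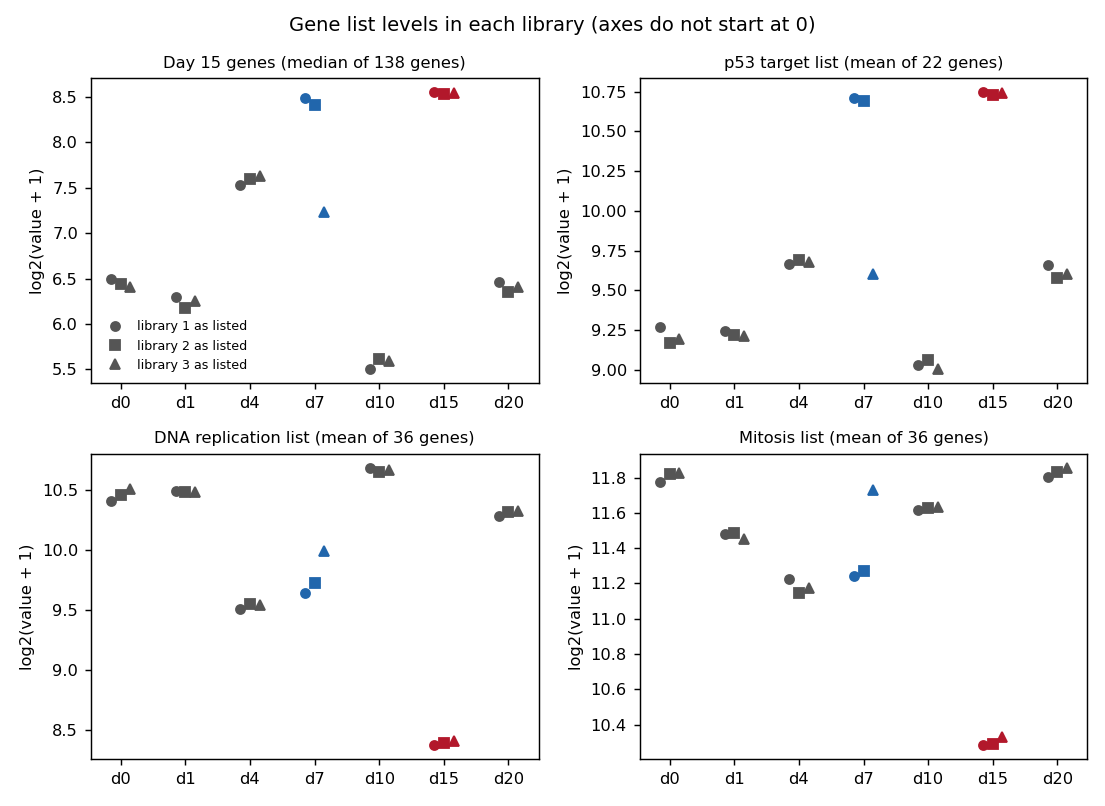
Level of 4 gene sets in each library on the log2(value + 1) scale, by timepoint, with the marker shape giving the order in the file. The 138 genes and the p53 list are highest at d15 (8.53 to 8.55 and 10.73 to 10.75) and in the first and second d7 libraries, and the replication and mitosis lists are lowest at d15.

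At d15 the cell cycle lists were at their lowest of the course. The mean log2 value of the replication genes was 8.37 to 8.41 at d15, compared with 10.65 to 10.68 at d10 and 10.28 to 10.32 at d20, and that of the mitosis genes was 10.28 to 10.33, 11.61 to 11.64 and 11.80 to 11.86 at the same days. At d15 against d10, 33 of 36 replication genes and 31 of 36 mitosis genes were lower, compared with 10.2% of all genes. At d20 against d15, 32 and 35 were higher, compared with 7.55% of all genes. *MCM2*, a subunit of the replicative helicase, was 3667 ± 49.9 at d10, 672 ± 20.4 at d15 and 2771 ± 59.5 at d20 (SD, n = 3). From d1 to d4, 18 of the 36 replication genes fell, compared with 1.98% of all genes, with a median log2 fold change of -0.997. Of the mitosis genes 0 fell by 2-fold in limma's test and 29 were lower at an unadjusted p under 0.05. The median of the mitosis genes was -0.31.

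**Figure D5:**
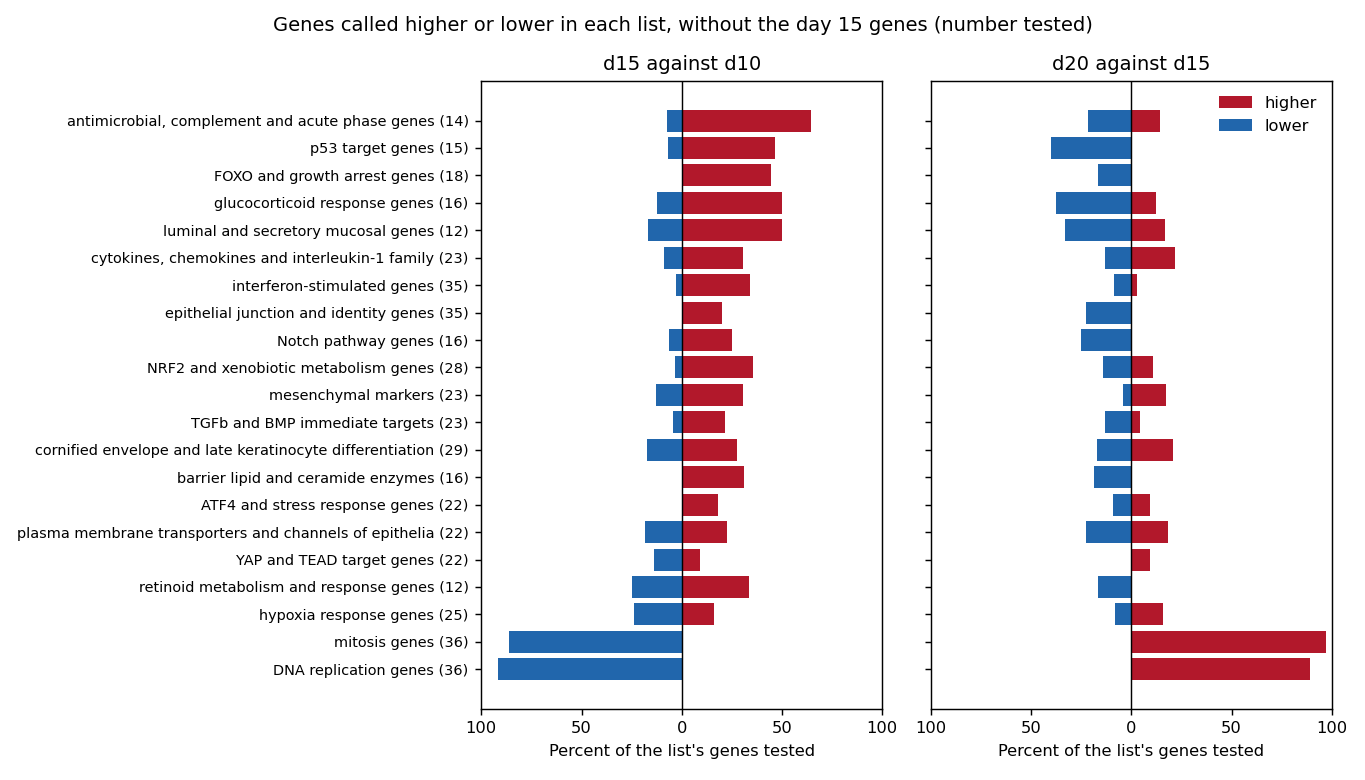
Percent of the genes tested in each of 21 pathway lists, leaving out the 138, that were higher (red, to the right) or lower (blue, to the left) at d15 against d10 and at d20 against d15, with the number of genes beside each name. The p53 list has 7 of 15 genes higher and then 6 lower, and the DNA replication list 33 of 36 lower and then 32 higher. Of all genes tested, 12% were higher and 10.2% lower at d15 than d10. At d20 against d15, 7.55% were higher and 7.43% lower.

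*NOTCH1* was the receptor of the Notch pathway among the 138. Its normalised read counts were 1800.3, 1768 and 1679 at d0, 534, 526 and 557 at d1, 1791, 1669 and 1731 at d4, then 7660.4, 7044 and 1655 at d7, 635, 720.0 and 650.3 at d10, followed by 7807, 7559.6 and 7673 at d15 and 1319.7, 1284 and 1144 at d20, so the first d7 library lay within the d15 range, the second below it and the third below d4. From d1 to d4 *NOTCH1* rose by 1.68 (SE 0.32, limma adjusted p = 0.000105). That SE comes from the spread over all timepoints, the third d7 library included, and not from d1 and d4 alone. Without that library the SE of its change from d1 to d7 was 0.05. *HES2*, a repressor of the HES family, rose from d1 to d7 by 1.77, or 2.61 without the third library, and *MIB2*, a ligase acting on Notch ligands, was 303 ± 17.6 at d10 and 1102 ± 51.2 at d15. Of the 18 Notch pathway genes tested, 16 lay outside the 138, and 4 of these were higher and 1 lower at d15 than d10 (12% and 10.2% of all genes). The 4 were *NOTCH3*, *NOTCH4*, *HEYL* and *DTX4*, whereas *HES1*, the best known target, changed by 0.61 and *NRARP* by -0.19. *AXIN2*, a feedback inhibitor and target of Wnt signalling, was at 3 reads or fewer in each d0 library and at 133 ± 9.73 at d15, at least 48.9-fold higher, and rose by 1.80 from d1 to d4.

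The genes grouped as transcription factors and named here were all called at d4, as were 71.0% of the 138. They were *LBH*, *SATB1*, *MAF*, *ZNF467*, *HSF4*, *ZNF862* and *ZNF474*, with log2 fold changes from 1.17 to 2.30 against d1. The factors *FOXO1* and *HES2*, placed in other groups, were not called at d4, with log2 fold changes of 0.86 and 0.61. *SATB1*, a chromatin organizer, went from 8.48 ± 0.73 at d0 to 144 ± 9.12 at d15, and *MAF*, a leucine zipper factor, from 56.7 ± 1.37 to 896 ± 40.4 (mean ± SD, n = 3).

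Small heat shock proteins, which hold unfolded proteins in solution, were first called at d7. *HSPB1* (HSP27) was 10535, 9838 and 9512 at d4, then 36107, 30032 and 16194 at d7, 3690.2, 4098 and 3666 at d10 and 26039, 23238 and 24372 at d15, and *CRYAB* (αB-crystallin) was 56.3 ± 1.48 at d10 and 717 ± 24.5 at d15. Neither was called at d4, where their log2 fold changes were 0.38 and 0.82, and both rose from d1 to d7, by 1.76 and 1.99, or 2.10 and 2.59 without the third library. The stress-induced nuclear protein *NUPR1*, which was on the ATF4 list, rose at d7 by 1.18, or 1.46 without it. Of the 22 other genes tested on that list, 4 were higher at d15 than d10 (12% of all genes) and 0 lower by limma (10.2% of all genes), with 2 lower at an unadjusted p under 0.05.

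The receptors and guidance molecules named here had their highest mean at d15. *UNC5B*, a netrin receptor, stood at 1098, 1151 and 1135 at d4, 302, 302 and 342 at d10 and 2961, 3082 and 2909.8 at d15. The semaphorins *SEMA3B* and *SEMA6D*, the peptide hormone receptor *VIPR1*, the orphan receptor *GPRC5C*, the adhesion molecule *ICAM5* and the B cell surface protein *CD72* had d15 means between 114 and 379. *LAPTM5*, a lysosomal protein of leukocytes, was 79.2 ± 1.28 at d10 and 675 ± 68.4 at d15 (SD, n = 3). The summed immune markers, led by genes other than the 7 at the floor, were 1524 to 1597 at d15 and 759 to 891 at d10, and their part in *LAPTM5*, *CD72* and *INPP5D* was not tested.

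Secreted proteins included genes that stood higher at d7 than at d15. *IGFL1*, a small protein of the insulin-like growth factor family, had 16.02, 14.4 and 16.8 at d0, 325, 347 and 296 at d4, then 1166, 1304 and 217 at d7, 40.8, 43.7 and 37.2 at d10 and 291, 279 and 255 at d15. The first and second d7 libraries were thus far above d15, and the third below it. *KITLG*, the ligand of the KIT receptor, was 162 ± 20.48 at d4, 839 ± 588 at d7 and 838 ± 22.7 at d15. Its log2 fold change against d1 was 0.09 at d4, and it rose by 2.00 at d7, or by 2.96 without the third library. The complement protease *C1R* rose by 1.06 and 2.44 at the same days, and the acute phase protein *SERPINA3*, highest at d4, by 2.46 and 1.88. Without the third d7 library their changes at d7 were 2.81 and 2.25. At d4 the mean of *C1R* was 766, below its 1167 in untreated cells. Of 14 antimicrobial, complement and acute phase genes tested outside the 138, 9 were higher and 1 lower at d15 than d10 (12% and 10.2% of all genes).

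Signalling enzymes and G protein regulators made up 10 of the genes, of which 7 rose at d4 and 9 at d7, set beside 71.0% and 85.5% of the 138. Beside *INPP5D* they were the Ras regulators *RASA4*, *RASL11B*, *RASD2* and *MRAS*, the G protein genes *RGS2* and *GNAO1*, the phosphodiesterases *PDE4C* and *PDE6A*, and *PITPNM3*. Of the 10, 6 had their highest mean at d15. *RASD2* was higher at d4, with 232 ± 23.7, than at d15, with 196 ± 14.4 (SD, n = 3). *GNAO1* was highest at d7, with 534 ± 308 against 399 ± 34.0 at d15. Reads of *RASA4* can be shared with near-identical copies.

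*LOX*, the enzyme that crosslinks collagen and elastin, was the matrix gene with the largest read count. It stood at 334, 329 and 303 at d0, 1716, 1668 and 1658 at d1, 5651, 5246 and 5151 at d4, then 11409.9, 10363 and 8345 at d7, 952, 1072 and 953 at d10, followed by 12729, 12142 and 12104 at d15 and 3351, 3019 and 3221 at d20. Every treated library exceeded every untreated one, and d10 was the lowest treated day. From d1 to d7 it rose by 2.57 (SE 0.08, limma adjusted p = 1.26e-15), or 2.69 without the third library. *SULF1* (a heparan sulfatase), *TNXB* (tenascin-X) and *PODNL1* completed the group, and *SULF1* had 441, 497 and 398 at d15, where the means of the others were 232 ± 26.6 and 293 ± 17.7. Of 23 mesenchymal markers tested beside *LOX*, 7 were higher and 3 lower at d15 than d10 (12% and 10.2% of all genes), and 4 were higher and 1 lower at d20 than d15 (7.55% and 7.43% of all genes).

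Metabolic enzymes were the largest group by role, with 15 genes, 14 of them called at d7 and 8 at d4, set beside 85.5% and 71.0% of the 138. *CPT1A*, the gate of fatty acid entry into mitochondria, was 55.95 ± 0.70 at d10 and 295 ± 16.1 at d15. *CKB* (brain-type creatine kinase) was 33.4 ± 7.80 and 562 ± 25.2 on the same days. The lipid droplet coat *PLIN4* had 18.9, 18.5 and 16.6 in the d10 libraries and 410.1, 452 and 399 at d15. *ALOX15B*, a lipoxygenase of epithelial barrier lipids, was highest at d4, with 653 ± 12.1 against 552 ± 57.7 at d15, and *RDH16*, a retinol dehydrogenase, at d7, with 275 ± 118 against 166 ± 9.73. The others were *ACER2*, *CEL*, *CES3*, *ADSSL1*, *COX6B2*, *IDUA*, *GAL3ST4*, *GCNT4*, *CYGB* and *PRODH*, and the d15 means of the 15 lay between 109 and 886. Reads of *CEL* can be shared with its pseudogene.

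Channels and transporters had small counts. *BEST2*, a chloride channel, had 72.1, 62.8 and 65.3 at d0, 131, 87.6 and 46.5 at d7, 3.98, 4.86 and 1.96 at d10, followed by 323, 277 and 282 at d15 and 22.3, 12.6 and 12.7 at d20. *SCN4B*, *SLC29A4*, the calcium pump gene *ATP2A1* and the kinase *WNK4*, which regulates salt transporters, had d15 means from 112 to 314 with *BEST2* included.

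Among the noncoding transcripts, *SNHG1* and *GAS5* host small nucleolar RNAs in their introns and were not called on an earlier day. *SNHG1* was 2069, 1889.8 and 1613 at d0, 1935, 1886 and 2007 at d4, then 1165, 1262 and 1336 at d7, 1611, 1544 and 1603 at d10, followed by 4774, 4964 and 4993 at d15 and 1143, 1183 and 1189 at d20, so that its d15 libraries were more than 2 times any other library. Its log2 fold change from d1 was 0.36 at d4 and -0.28 at d7, and that of *GAS5* was 0.80 and 0.29 (-0.32 and 0.32 at d7 without the third library), none of which reached 2-fold. The let-7b host *MIRLET7BHG* rose by 1.42 at d4. The histone genes *HIST1H2BD* and *HIST1H2AC*, whose reads can be shared with near-identical copies, rose by 2.09 and 2.03.

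The remaining 43 genes were given no common role. They had d15 means from 119 to 4848, and 31 of them rose at d4 and 34 at d7, set beside 71.0% and 85.5% of the 138. Among them were *KLHL24* and *PNRC1*, the membrane protein *NINJ1*, the neuronal surface genes *APLP1*, *SDK2*, *SEZ6L2* and *NPTXR*, the kinases *DMPK* and *MAST1*, *RHBDL1*, *VAMP5*, *SYTL2*, *PRX*, *PDZK1IP1* and *MYO15B*. Others were *BEAN1*, *BZRAP1*, *CCDC146*, *DFNB31*, *DQX1*, *NYNRIN*, *RNF39*, *TCEA2*, *TCP11L2*, *TMEM91*, *TSSK3* and *FAM198B*, and the open reading frames and unnamed loci *C17orf103*, *C5orf38*, *C5orf4*, *C5orf41*, *C6orf138*, *C7orf51*, FLJ45244, *KIAA1045*, LOC284440, LOC441869 and LOC100129550. *KLHL24* was 1131 ± 70.5 at d4 and 1201 ± 29.6 at d15 (SD, n = 3), and *NINJ1* 491 ± 40.6 and 2251 ± 93.4.

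Genes at the edges of the selection lay close to their neighbours outside it. The members with the lowest d15 means were *EDN2*, *MST1* and *PDE4C*, at 101, 102 and 106, and *LYNX1*, *FAM49A* and *DAPK1* just missed that condition alone, at 93.6, 90.3 and 89.7. Against d10, the smallest ratios inside were 3.10 for *SNHG1*, 3.12 for *HSF4* and 3.16 for *DMPK*, and the nearest outside were 2.97 for *MIR205*, 2.95 for *ZFP36* and 2.94 for *MAST3*. Against d20, they were 3.03 for *TSSK3*, 3.05 for LOC100129550 and 3.05 for *IGFL1* inside, and 2.99 for *IP6K3*, 2.98 for *FKBP9L* and 2.97 for *C6orf48* outside. Against d0, *ALOX15B*, *C5orf38* and *SULF1* were inside at 2.02, 2.04 and 2.05, and *OPLAH*, *TMC4* and *P4HTM* outside at 1.85, 1.77 and 1.77. Reads of *MST1* can be shared with near-identical copies.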

How the data were processed

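The authors deposited 1 normalised signal per gene symbol and library for 23201 symbols and 21 libraries, made by dividing read counts by 1 size factor per library and rounding. The submitters' processing notes name STAR 2.7, Salmon 1.4 and the build hg19, and the annotation is not given in the sources used here. Values were a whole number of reads in 100% of cases (tolerance 0.01 reads, for up to 1500 reads). No coordinates of hg19 are printed. Columns were matched to timepoints by their headers, which carry no replicate numbers.

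Genes with a mean of at least 10 entered limma 3.58.1 (R 4.3.3) as log2(value + 1), with a trend, 1 mean per timepoint and Benjamini-Hochberg adjustment over 13343 genes per comparison. All 21 libraries shared 1 estimate of the spread per gene, so the third d7 library also entered the SE and p at d4 against d1. Fold changes on that scale understate changes of low genes. A call needed an adjusted p under 0.05 and at least 2-fold. No d0, d10, d15 or d20 value of the selected genes was tested, since these chose them. The genes, the 27 lists and the tests were chosen with earlier results of these data known, and the role groups after the values were seen, with motifs and promoters likewise. Named are the 15 genes with the largest ratio of d15 to the next highest timepoint, all list members, the 5 largest calls in each direction, the genes nearest each threshold, and others by role. A few genes are not reported here. A gene at 3 reads or fewer was taken as not detected, a limit that reflects counting error alone.

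Libraries of a timepoint differed by more than counting noise (chi-square per gene at least 1.37). On simulated data of 13283 genes, with changes placed at d4 against d1, limma called 98 of 100 genes changed 3-fold, 100 of 100 changed 6-fold and 1 unchanged gene. No outlying library was simulated, so the d7 comparisons were not covered. Alternatives were a pseudocount of 10, no filter, total rescaling, quantile normalization, only the 2 timepoints compared, edgeR 4.0.16 and DESeq2 1.42.0 on recovered reads, no minimum fold, other thresholds of the selection and each library left out. Figures used matplotlib 3.10.9.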

Additional observations from a re-analysis of the deposited data

How the results depend on the processing

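No paired analysis was possible because replicate numbers are missing from the column headers. The counts of genes higher at d4 (98) and d7 (118) against d1 stayed between 89 and 134 under every alternative. Of 704 values followed under alternatives, 0 were reversed. Small log2 fold changes of single genes could change sign outside those values. Without the third d7 library, that of *BMF* at d7 against d4 went from -0.24 to 0.12, and that of *BCL6* from -0.19 to 0.19. The count of genes higher at d7 than d4 (37) was the least stable: 24 with only these timepoints in the fit, and between 22 and 55 with 1 library left out, the extremes being without the first and without the third d7 library as listed. Of the genes lower at d7 than d4 (3), edgeR called 1, 27 were lower with no minimum fold change, and between 1 and 5 were lower with 1 library left out. Counts under alternatives are given without the share of all genes. At d7 against d1, 1 gene was lower with no minimum fold change (*SNHG1*). The selection held 416 genes at 2 times d10 and d20 and 1.5 times d0, and 54 at 4 times d10 and d20 and 3 times d0. It held 132 after total rescaling (124 of them among the 138) and 132 after quantile normalization (123 of them), and between 131 and 144 with 1 library left out. The count of genes highest at d15 was 116, and 97 without the third d7 library, an alternative chosen after seeing the data. Of the 234 values of the named calls under alternatives, 10 no longer passed the threshold, for *ATP2A1*, *EGR1*, *FBXO32* and *EDN2* at d7 against d4. Causes were not tested. With 3 libraries per timepoint, genes of few reads such as *KDR* and *EDN2* at d10 are limited by depth.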

Other observations

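The 4 genes that met the numeric conditions and were left out for their family names were *KRT17*, *COL2A1*, *MMP15* and *MMP28*. *KRT17*, a keratin of basal and wounded epithelium whose reads can be shared with *KRT14*, had mean normalised read counts of 39309 ± 2241 (SD, n = 3) at d0, 13305 ± 807 at d10, 186677 ± 4734 at d15 and 48718 ± 1517 at d20. *MMP28*, the matrix protease epilysin, was 1184 ± 22.7 at d4, 189 ± 29.5 at d10 and 1245 ± 21.6 at d15. *COL2A1* and *MMP15* had d15 means of 164 and 137.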
